A study of Mus musculus with 16 samples.

Results

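m6A capture was measured in peritoneal macrophages (PMs) treated with lipopolysaccharide (LPS) over all 7069 merged peaks of the deposited MeRIP-seq table, in the 8 LPS libraries of 16. MeRIP-seq sequences RNA fragments pulled down with an m6A-specific antibody (IP) beside the same fragmented RNA without pulldown (input). Each distinct peak counted once, and its 4 IP libraries were set against the 4 input libraries of the same cultures, with both genotypes pooled. The study asked which transcripts the adaptor protein ADAP and the m6A methyltransferase METTL3 regulate through m6A in inflamed macrophages. PMs came from WT and Adap-/- (ADAP knockout) sex-matched littermate mice on the C57BL/6 background, 6 to 8 weeks old, by lavage 3 days after injection of 3% thioglycolate, which draws macrophages into the peritoneum. LPS was given at 1 μg/ml over 6 h, mock cultures stayed untreated, and each of the 4 groups had 2 replicates, here called WT 1, WT 2, Adap-/- 1 and Adap-/- 2. The labels do not say whether replicates came from separate mice, so p-values measure the spread between these cultures.

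N6-methyladenosine (m6A) is the most common internal modification of mRNA. A nuclear complex of METTL3, METTL14 and partners such as WTAP writes it during transcription, ALKBH5 and FTO remove it, and YTH-domain proteins read it and direct splicing, translation and decay. In macrophages, LPS binds TLR4 and drives a fast wave of cytokine mRNAs through NF-κB, followed by a wave of interferon-induced mRNAs.

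The reads on peaks ranged from 6517124 to 19030373 in the LPS IP libraries and from 3432746 to 4325961 in the LPS input libraries. Of 16 macrophage markers, 13 had a peak, and their summed input was 12392 to 13676 CPM (read counts scaled to a common library size) over the LPS cultures. Of 28 markers of neutrophils, lymphocytes, eosinophils, mast cells and stroma, only Csf3r had a peak, at 314 to 394 CPM, and the table holds no gene without a peak. In these bulk cultures, fewer cells of a type and less RNA per cell cannot be told apart. Fyb1, which encodes ADAP, matched the labels of the LPS libraries: its coding peak at chr15:6609828-6610128 had 0 and 0 IP reads and 1 and 0 input reads without ADAP, against 1337 and 3967 IP reads and 618 and 592 input reads in WT PMs. The mock Adap-/- IP libraries had 59 and 0 reads there. A pair of mock IP libraries stood apart. The 329 peaks whose input rose more than 16-fold with LPS held 1.01% to 1.53% of the reads of the mock inputs and 1.68% and 1.12% of those of mock IP Adap-/- 1 and WT 2. They held 11.3% and 12.6% of the reads of mock IP Adap-/- 2 and WT 1, near the 13.6% to 17.0% of the LPS IP libraries. The WT LPS IP libraries showed a smaller shift of the opposite kind: 107 peaks whose input fell more than 8-fold with LPS had a median of 16.01% and 13.1% of their mock input level there, against 7.66% and 6.79% in the Adap-/- LPS IP libraries and 6.24% to 7.33% in the LPS inputs. In the LPS inputs the 329 raised peaks held 34.86% to 36.77% of the reads, more than in any LPS IP library. Their median level in the LPS IP libraries was 25.84% to 34.96% of the LPS input level. The low capture of LPS-raised transcripts given below rests on this same gap between LPS IP and input, and its cause was not tested. Results that use the mock pair or the WT LPS IP libraries are given with their shifts in view.

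Capture is given as the IP-to-input ratio, the normalised IP CPM of a peak over its normalised input CPM in the same culture. Libraries were scaled on the peaks themselves, so a ratio of 1 is the level of the average merged peak and not the absence of m6A. The authors called the peaks on these libraries, and reads outside peaks were not used here, so a ratio below 1 means less capture than the average peak.

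Capture differed widely between peaks. Of the 7020 peaks with enough reads to test, 1705 (24.3%) had a higher ratio than the average peak and 1792 (25.5%) a lower ratio, in all 3497 (49.8%), by edgeR's quasi-likelihood test at an adjusted p below 0.05. Of these, 881 (12.5%) were at least 2-fold higher and 686 (9.77%) at least 2-fold lower. The higher calls include 66 in peaks with at most 3 reads in each LPS input, whose direction the read filter fixed. The split between directions rests on the scaling. It was 2455 higher and 1267 lower with upper-quartile scaling, and 4381 higher and 530 lower with scaling to all reads on peaks, where the median log2 ratio of all peaks moved from 0.06 to 0.30 and 0.81. The values here are therefore read against all peaks.

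The middle 50% of log2 ratios lay between -0.51 and 0.65, and the middle 90% between -1.38 and 1.66. In 4330 peaks (61.7%) all 4 cultures fell on the same side. The SD of the log2 ratio over the 4 cultures had a median of 0.31 in the 6020 peaks with at least 10 reads in each LPS input. Spearman's rho between cultures ran from 0.63 (Adap-/- 2 and WT 1) to 0.82 (WT 1 and WT 2) over 7020 peaks, which share their libraries' composition. Among 3776 genes with a peak of their own, 1279 had a peak called higher, 1049 a peak called lower and 172 had both.

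**Figure D1:**
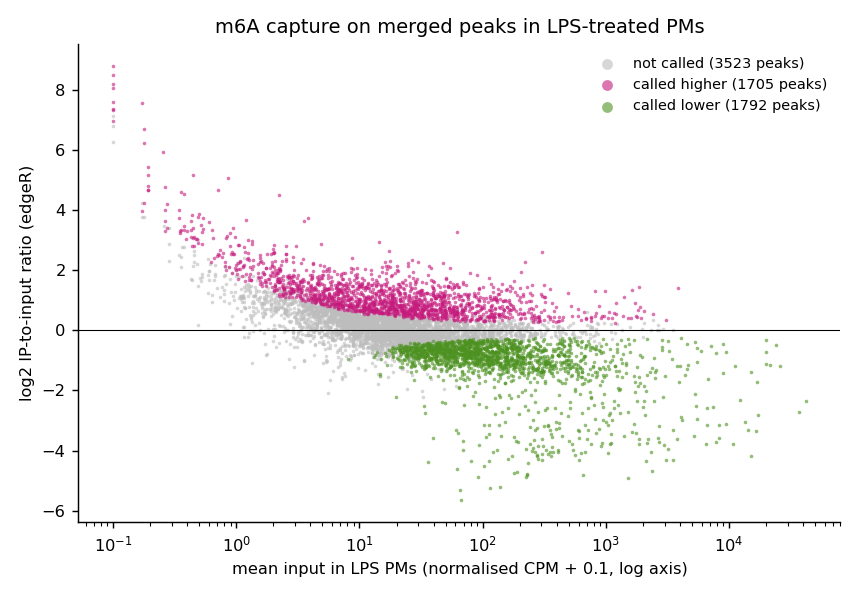
Each point is a merged peak in LPS-treated PMs, with its mean input in normalised CPM plus 0.1 (log axis) against its log2 IP-to-input ratio from edgeR, where 0 is the average peak. The 1705 peaks called higher spread over all input levels, while the 1792 peaks called lower lie at middle and high input, with a separate cloud below -2.

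The strongest capture among well-read peaks lay on transcripts of varied function, and 7 of the 12 highest genes carried it at the stop codon. Of all 7020 tested peaks, 2305 were stop codon peaks. Saa3, an acute-phase serum amyloid A, led with ratios of 7.08 and 7.92 in the Adap-/- and 11.4 and 13.5 in the WT cultures. Its peak (chr7:46364351-46365118) was annotated to both a start and a stop codon. Its log2 ratio was 3.25 ± 0.17 (SE, adjusted p = 3.81e-06). All 4 cultures were far above 1, and both WT cultures above both Adap-/- cultures.

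Mocs3, an enzyme of molybdenum cofactor synthesis and tRNA thiolation, had ratios of 8.07, 8.64, 5.84 and 8.74 in Adap-/- 1, Adap-/- 2, WT 1 and WT 2 at its stop codon (chr2:168073691-168074041; log2 ratio 2.94). Ifit3 (ENSMUSG00000062488), an interferon-induced antiviral protein, had 6.02, 9.80, 4.31 and 5.45 in the same order at chr19:34590026-34590426 (log2 ratio 2.60), although LPS raised its input. Herc2, a large ubiquitin ligase, had 4.88, 5.75, 4.75 and 4.92. Hexim1, an inhibitor of the elongation factor P-TEFb, had 4.71, 5.63, 4.19 and 5.57. The genotypes overlapped in Mocs3, Herc2 and Hexim1, while for Ifit3 both Adap-/- cultures lay above both WT cultures.

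The other 7 were Cln8, Thap7 and APOL3 (ENSMUSG00000044309) at the stop codon, Urgcp, Ahnak2 and Spen in the coding sequence, and Mgat1, an enzyme of N-glycan synthesis, at the 5'UTR. Their log2 ratios ran from 2.14 to 2.27, with adjusted p from 2.55e-06 to 3.32e-05. Both Adap-/- cultures were above both WT cultures in Urgcp, Thap7, Mgat1, Ahnak2 and Spen, a transcriptional repressor, with 5.83 and 5.68 against 3.04 and 3.75 for Ahnak2 as an example. In APOL3 both WT cultures were above both Adap-/- cultures, and in Cln8 the genotypes overlapped. The difference between genotypes was not tested here. How often all peaks separate the genotypes in this way was not counted, so these orders are not read as a genotype effect.

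The lowest capture fell on LPS-induced inflammatory transcripts. Csf3, the granulocyte colony-stimulating factor, was the lowest of all tested peaks: at its stop codon (chr11:98593767-98593867) 0, 91, 16 and 7 IP reads stood against 260, 264, 155 and 117 input reads in Adap-/- 1, Adap-/- 2, WT 1 and WT 2. Its ratios were 0, 0.0661, 0.0385 and 0.00886, and its log2 ratio was -5.66 ± 0.79 (SE, adjusted p = 0.000549). Every culture was more than 10-fold below the average peak.

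Ch25h, which makes 25-hydroxycholesterol, had ratios of 0, 0.0274, 0.0791 and 0.0279 (log2 ratio -5.33). Tnfsf15, a TNF-family cytokine, had 0.0391, 0.0268, 0.0482 and 0.00469 at a 3'UTR peak (-5.24). Trim30a (ENSMUSG00000078616), an interferon-induced TRIM protein, had 0.0153, 0.0398, 0.0527 and 0.0152 (-5.20). Ptgs2, which encodes cyclooxygenase-2, had 0.0199, 0.0615, 0.0697 and 0.0138 at a 3'UTR peak with 2734 to 6065 input reads (-4.90). No culture of these 4 peaks reached a ratio of 0.1.

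Oas3, Edn1 (endothelin-1), Il15, Nos2 (inducible nitric oxide synthase), Gbp4 (ENSMUSG00000040253), Marcksl1 and Il12b (the IL-12 p40 subunit) completed the 12, with log2 ratios from -4.88 to -4.53 and adjusted p from 4.4e-05 to 0.000776. Nos2 had ratios of 0.0125, 0.135, 0.0799 and 0.00881. The spread between cultures was wider at the low end than at the high end. In 10 of the 12 lowest peaks the ratios of Adap-/- 1 and WT 2 were both below those of Adap-/- 2 and WT 1. The share of all peaks with this order was not counted, so it is not read as a trait of the lowest peaks. Adap-/- 1 and WT 2 also had the deepest LPS IP libraries, with 19030373 and 13731908 reads against 11085317 and 6517124, and the part of this in the order was not tested.

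**Figure D2:**
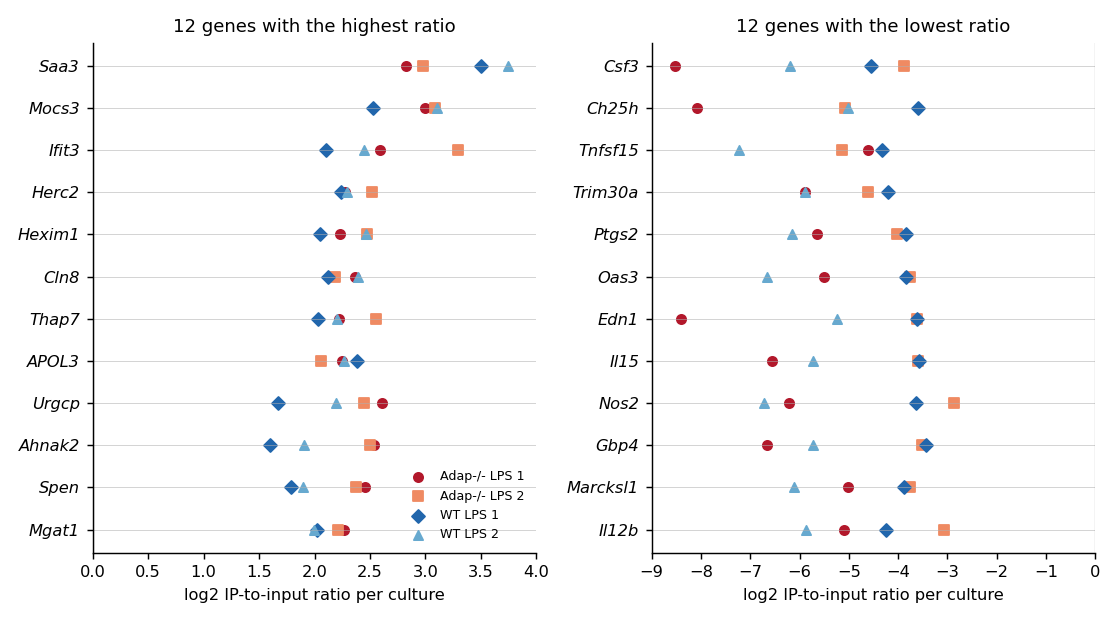
Log2 IP-to-input ratio in each LPS culture (points, computed with a prior count of 2) for the 12 genes with the highest and the 12 with the lowest ratio among well-read peaks annotated to 1 gene. The 4 cultures of a high gene such as Mocs3 (2.94) lie close together, while those of low genes such as Csf3 (-5.66) spread, with Adap-/- 1 and WT 2 lowest in most.

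Capture in LPS PMs fell with the size of the LPS response of the transcript. The 4451 peaks whose input changed less than 2-fold had a median log2 ratio of 0.09, with 25.1% called higher and 22.0% lower. The median was -0.28 where the input rose by 2 to 3 on the log2 scale (290 peaks), -0.50 for 3 to 4 (173 peaks), -1.17 for 4 to 6 (211 peaks, 9.48% higher and 67.8% lower) and -2.32 above 6 (118 peaks, 5.93% higher and 87.3% lower). Where LPS lowered the input by more than 3 the median was 0.47 (107 peaks), with -0.04 and -0.01 in the Adap-/- cultures and 1.20 and 0.64 in the WT cultures, whose IP libraries held more of these transcripts.

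The LPS inputs enter both measures. With the change taken from the WT cultures and the ratio from the Adap-/- cultures, the peaks above 6 had a median of -2.24, and with the genotypes exchanged it was -2.996. These versions were chosen after the data were seen. Each of the 4 LPS cultures fell over the same range, to between -2.11 and -2.56. In the mock PMs the same peaks had medians of 1.08 in Adap-/- 1 and 0.62 in WT 2, and of 4.24 and 5.20 in Adap-/- 2 and WT 1, the cultures whose IP libraries held LPS-raised transcripts.

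Of the 7020 tested peaks, 792 lay on transcripts raised more than 4-fold. Of these 792, 484 were called lower and 99 higher, against 25.5% and 24.3% of all tested peaks. Of the 130 peaks with a log2 ratio of -3 or less, 119 were on such transcripts.

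**Figure D3:**
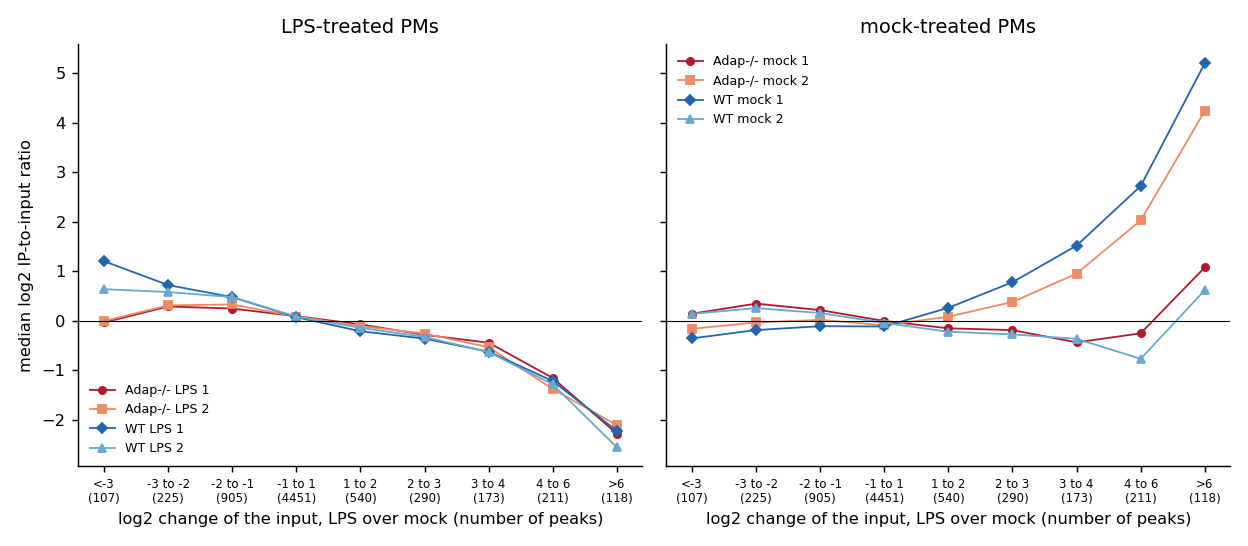
Median log2 IP-to-input ratio of peaks grouped by the log2 change of their input with LPS (number of peaks in brackets), 1 line per culture, for LPS PMs (left) and mock PMs (right). The 4 LPS cultures fall together to between -2.11 and -2.56, while in mock PMs Adap-/- 2 and WT 1 rise to 4.24 and 5.20 and the other cultures end at 1.08 and 0.62.

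Cytokines and chemokines were the least captured list. Of 38 genes, 28 had a tested peak, and of their 55 peaks 42 (76.4%) were called lower and 6 (10.9%) higher, against 25.5% and 24.3% of all peaks, with a median log2 ratio of -2.58 against 0.06 over all peaks; 46 of the 55 lay on transcripts raised more than 4-fold. Tnf had ratios of 0.197, 0.228, 0.197 and 0.172 in Adap-/- 1, Adap-/- 2, WT 1 and WT 2 over its whole gene (chr17:35418356-35420983), with 84426 to 145269 input reads, and a log2 ratio of -2.34 ± 0.09 (adjusted p = 2.48e-06). The cultures lay close together and the genotypes overlapped.

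Il1b had ratios of 0.108, 0.134, 0.122 and 0.0870 at the peak that reaches its stop codon (log2 ratio -3.17) and 0.569, 0.652, 0.564 and 0.672 at the start codon (-0.71), where an overlapping gene (ENSMUSG00000074805) shares the reads. Il6 differed along its length as well. Its stop codon peak (chr5:30218421-30223201) had ratios of 0.0771, 0.1003, 0.0974 and 0.0582, and its 3'UTR peak 0.105, 0.126, 0.109 and 0.0744. The short start codon peak just upstream (chr5:30218346-30218396), with 34 to 90 input reads, was at 1.03, 0.787, 0.855 and 1.20, which did not pass the test (log2 ratio -0.07, adjusted p = 0.75).

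The chemokine peaks were called lower as well. Cxcl2, a neutrophil attractant, was at -4.17 in the 3'UTR and -2.31 at a peak annotated to both a start and a stop codon. Ccl4 was at -3.81 and -1.12, and Ccl5 at -3.06. The 6 peaks called higher lay in Lif, Vegfa, Csf1 and Tnfsf9. Lif, an IL-6-family cytokine, was at 1.33 at its stop codon, where the lowest input had 1 read, and at 0.87 in its 3'UTR, and Vegfa, the angiogenic factor, was called higher at its start codon (0.92) and 3'UTR (0.96) and lower at its stop codon (-0.98). Csf1, the macrophage growth factor, was at 0.46, a call lost without Adap-/- 1 (0.40) or Adap-/- 2 (0.38). Tnfsf9, a TNF-family ligand, was called higher at its stop codon (0.43) and, at a coding peak shared with ENSMUSG00000079414, lower (-3.05).

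Interferon-induced genes were also weakly captured. With peaks in 38 of 50 symbols, 103 of 131 peaks (78.6%, against 25.5% of all peaks) were called lower and 9 (6.87%, against 24.3%) higher, at a median of -1.08, and 124 of the 131 lay on transcripts raised more than 4-fold. Mx1, an antiviral GTPase, had ratios of 0.0426, 0.103, 0.0977 and 0.0295 in its coding sequence (log2 ratio -4.06). Irf7, the transcription factor that amplifies the interferon response, had 6 peaks called lower, from -4.09 to -3.38. Isg15, a ubiquitin-like modifier, was called lower by less (-0.69). Eif2ak2, which encodes the double-stranded-RNA kinase PKR, had ratios of 2.23, 2.06, 2.29 and 2.08 at a 3'UTR peak called higher (log2 ratio 1.11, adjusted p = 2.99e-05), between 3'UTR peaks at -0.49 and -0.72 that were called lower.

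LPS-raised transcripts with high capture were the minority. In peaks of a single gene with at least 10 reads in each input and all 4 cultures above 1, 72 peaks of 66 genes were called higher on transcripts raised more than 4-fold; the genes named from this set were chosen after their values were seen. Pde4b, a cAMP phosphodiesterase, had ratios of 3.03, 2.35, 2.67 and 2.90 at its stop codon. Nod2, the muramyl dipeptide sensor, had 3.04, 2.67, 2.21 and 2.801 at its start codon. Trim56 had 2.45, 3.20, 2.49 and 2.91, and Aldh1b1 2.60, 2.32, 2.78 and 3.15. The genotypes overlapped in Pde4b, Nod2 and Trim56, and both WT cultures of Aldh1b1 lay above both Adap-/- cultures. Their log2 ratios ran from 1.42 to 1.46.

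Among the 4 genes the study selected, Pou3f1, a POU-domain transcription factor, had the highest ratios. Both Adap-/- cultures, at 6.72 and 5.08, lay above both WT cultures, at 3.25 and 3.49, at the stop codon (chr4:124552724-124552949; log2 ratio 2.11 ± 0.20, adjusted p = 6.19e-05). Its coding peaks were at 1.37 (called) and 0.64 (adjusted p = 0.0865). Spry1, an inhibitor of receptor tyrosine kinase signalling, had a single peak at its start codon (chr3:37696891-37697016), with 407, 258, 48 and 75 IP reads over 22, 16, 12 and 14 input reads. Both Adap-/- cultures (2.54 and 3.09) were above both WT cultures (1.49 and 0.793), and the pooled log2 ratio of 0.86 ± 0.37 did not pass the test (adjusted p = 0.0824).

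Cish, a SOCS-family inhibitor, whose peaks share reads with ENSMUSG00000090570, had ratios of 1.496, 1.59, 0.690 and 0.694 at its stop codon (log2 ratio 0.08, adjusted p = 0.799). Cd300lb, an activating myeloid receptor, had 4 peaks, none past the test. At its largest peak, at the stop codon (chr11:114814556-114815781), the ratios were 0.965 and 0.834 without ADAP and 2.42 and 1.26 in WT cultures, with 66 to 171 input reads. WT cultures were above Adap-/- cultures at that peak and at the neighbouring 3'UTR peaks. These 4 genes were chosen by the study for a difference between genotypes in these samples, so that difference is not independent evidence here. The input of the Cd300lb peaks fell with LPS to 0.0274 to 0.0387 of its mock level, and the WT LPS IP libraries held more of such lowered transcripts (16.01% and 13.1% of the mock input level, against 7.66% and 6.79%). The part of this in the Cd300lb ratios was not tested.

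Feedback inhibitors lay near the average peak as a list: of 66 peaks, 11 (16.7%) were called higher and 21 (31.8%) lower, against 24.3% and 25.5% of all peaks, at a median of -0.03. The JAK-STAT inhibitors Socs3 and Socs1 were lowest, Socs3 with ratios of 0.0481, 0.0979, 0.101 and 0.0468 in its 3'UTR (log2 ratio -3.86) and Socs1 with 0.107, 0.153, 0.0553 and 0.0505 at its stop codon (-3.57). Otud7b, a deubiquitinase that restrains noncanonical NF-κB signalling, was at 4.11, 3.36, 1.90 and 2.21 (1.46), and the pseudokinase gene Trib1 at 2.15, 2.73, 1.79 and 4.02 (1.33). Nfkbia, which encodes IκBα, was called lower at its start codon (-1.02), and the stop codon peaks of Tnfaip3 (A20, 0.05), Dusp1 (-0.03) and Zfp36 (tristetraprolin, -0.02) were not called.

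In the TLR4 and NF-κB pathway 6 of 43 peaks (14.0%, against 24.3% of all peaks) were called higher and 16 (37.2%, against 25.5%) lower, at a median of -0.30, with 30 peaks on transcripts that changed less than 2-fold. The receptor Tlr4 had the highest capture, with ratios of 2.96, 2.55, 2.70 and 2.64 at its stop codon (chr4:66759621-66759996; log2 ratio 1.44 ± 0.10, adjusted p = 1.71e-05). Traf6, the ubiquitin ligase below it, had 2.62, 1.95, 2.22 and 2.07 (1.14). Irf5 was lowest (0.425, 0.447, 0.396 and 0.352; -1.31), followed by the kinase gene Irak2 (-1.10) and the NF-κB subunit gene Rel (-0.90).

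Among the m6A writers, 7 of 9 genes had 18 tested peaks. Of these, 10 (55.6%, against 24.3% of all peaks) were called higher and 2 (11.1%, against 25.5%) lower, at a median of 0.62. None lay on a transcript that changed 2-fold with LPS. The higher calls include the 5'UTR peak of Wtap, with 0 to 3 reads in each LPS input. That peak passed the read filter only through its IP reads, which fixed the direction of its call. Rbm15b, an RNA-binding adaptor of the complex, had ratios of 7.10, 7.45, 2.74 and 3.92 at a coding peak. Its reads there, as at its other peaks called higher, are shared with Manf. Its paralogue Rbm15 had 2.74, 2.08, 1.82 and 2.78 (log2 ratio 1.21), and the scaffold gene Zc3h13 3.47, 2.38, 3.50 and 3.33 (1.64). Wtap changed along its length, from 2.52, 2.05, 3.44 and 5.45 at the start codon (1.63) to log2 ratios of -0.78 at a stop codon peak and -0.86 in the 3'UTR, both called lower. Mettl3 and Mettl14 had no tested peak.

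The eraser Alkbh5 had a single peak, at 0.922, 0.987, 0.681 and 0.717 (log2 ratio -0.29, adjusted p = 0.097), and Fto had none. Of 17 reader peaks in 6 of 13 genes, 6 (35.3%, against 25.5% of all peaks) were called lower and 2 (11.8%, against 24.3%) higher, at a median of -0.42. Of the lower calls, those of Prrc2a and Ythdf3 were lost without Adap-/- 1 (-0.61 and -0.41), Adap-/- 2 (-1.19 and -0.75) or WT 2 (-0.96 and -0.60). Ythdc1, the nuclear reader, was at 0.585, 0.525, 0.555 and 0.325 in its 3'UTR (-1.04), and Hnrnpa2b1 at 0.366, 0.434, 0.685 and 0.558 (-1.01). The decay factor gene Ythdf2 had a coding peak at 1.26, 1.56, 1.48 and 1.72 (0.58, called higher), and 3 coding peaks between -0.15 and -0.07 that were not called.

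Medians of transcription factors and chromatin genes lay above that of all peaks. Inducible transcription factors had 26 of 65 peaks called higher and 17 (26.2%) lower (median 0.29), against 24.3% and 25.5% of all peaks. Jun family members differed between the ends of the coding sequence: the stop codon peaks of Jun (1.72), Junb (0.90) and Jund (0.90) were called higher, and their start codon peaks at -0.61, -1.48 and -0.59 lower. Cebpb had the same arrangement, at 1.34 and -1.39, the latter shared with Tmem189. Bhlhe40 had ratios of 4.09, 3.41, 3.62 and 4.31 in its coding sequence (1.94), and Klf13 4.02, 4.07, 3.01 and 3.19 in its 3'UTR (1.83).

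Histone-lysine methylases and demethylases (KMT, KDM and SETD genes) had 21 of 56 peaks (37.5%) called higher and 3 (5.36%) lower (median 0.39). Over all peaks these shares were 24.3% and 25.5%. Kdm6b, the LPS-inducible H3K27 demethylase, was at 2.68, 3.42, 2.46 and 3.26 (1.55). Zfp zinc-finger genes had 60 of 175 peaks (34.3%) called higher and 4 (2.29%) lower (median 0.54), such as Zfp503 at 5.55, 7.12, 2.31 and 3.43 (2.07) and Zfp62 at 2.84, 2.66, 3.04 and 3.59 (1.59). In both lists most peaks (49 and 147) were on transcripts that changed less than 2-fold, with medians of 0.36 and 0.51 there, against 0.09 over all such peaks. Among all such peaks, the fifth with the lowest mock input had 34.0% called higher and 0.112% lower (median 0.72). The part of input level in the values of these lists was not tested.

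Abundant housekeeping and lysosomal transcripts had 30 of 39 peaks (76.9%, against 25.5% of all peaks) called lower and 3 (7.69%, against 24.3%) higher. Their median was -1.10, and no peak lay on a transcript raised 4-fold. Among all peaks on transcripts within 2-fold, the fifth with the highest mock input had 56.2% called lower. The part of input level in these values was not tested. Eef1a1, the translation elongation factor, was at 0.185, 0.252, 0.483 and 0.358 (-1.74), and Tmsb4x (thymosin β4) at 0.220, 0.262, 0.299 and 0.206 (-2.04). Cytosolic ribosomal proteins had 12 of 16 peaks called lower and 0 higher (median -1.14), with Rpl32 lowest at 0.186, 0.130, 0.465 and 0.302 (-2.04). In the 16 peaks of nuclear-encoded respiratory chain subunits 3 (18.8%) were called lower and 1 (6.25%) higher (median 0.22). Macrophage markers were mixed, with 7 of 17 peaks (41.2%) called lower and 3 (17.6%) higher. Tyrobp (-1.75), Lyz2 (-1.54) and Cd68 (-1.20) were lower at the start codon, and Fcgr1 (0.98), Spi1 (1.11) and Tlr4 (1.44) higher at the stop codon.

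**Figure D4:**
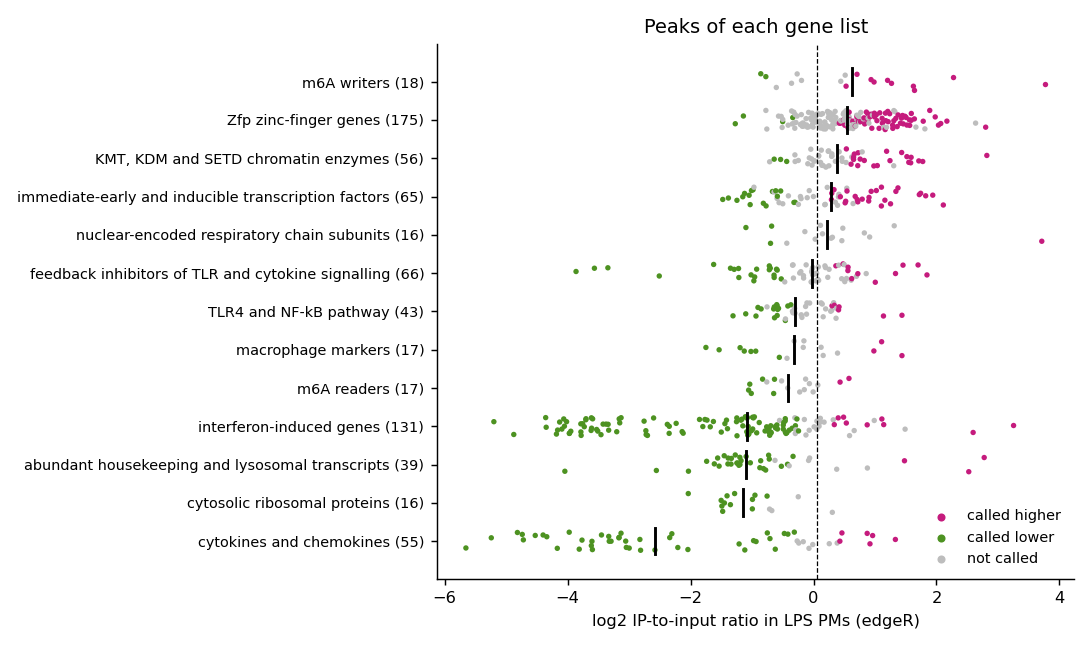
Log2 IP-to-input ratio of each tested peak of the gene lists (number of peaks in brackets), coloured by call, with the list's median as a vertical bar and the median of all peaks (0.06) as a dashed line. Lists run from m6A writers (median 0.62) to cytokines and chemokines (-2.58), and the interferon-induced genes spread from below -5 to above 3.

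On transcripts that LPS left within 2-fold, capture fell with the number of reads that the peak had in the mock input. Across 5 groups of about equal size the median log2 ratio was 0.72, 0.23, -0.04, -0.20 and -0.43, from the lowest mock input (at most 12.6 CPM) to the highest (from 104 CPM). The share called lower went from 0.112% to 56.2% and the share called higher from 34.0% to 18.4%. Spearman's rho was -0.50 over these 4451 peaks. The mock inputs are not libraries of the ratio, but the peaks were selected on IP reads by the peak caller and CPM of a peak grows with its length, and the part of either was not tested.

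By annotated region, capture in LPS PMs was highest at the 5'UTR and lowest in peaks annotated to both a start and a stop codon. These codons may belong to different transcripts or genes. Over all tested peaks 24.3% were called higher and 25.5% lower (median 0.06). Of 2305 stop codon peaks 656 (28.5%) were called higher and 599 lower (median 0.05). Of 2237 coding peaks 24.5% were called higher and 21.0% lower (median 0.12). Stop codon and coding peaks thus lay near all peaks. The 1128 3'UTR peaks (17.8% and 32.1%, median -0.08) and 943 start codon peaks (20.3% and 29.7%, median -0.01) had more lower than higher calls. The 160 5'UTR peaks had 32.5% higher and 7.5% lower (median 0.52), but 43.8% of them had fewer than 10 reads in an LPS input. Their median above all peaks fell from 0.47 to 0.11 among peaks with at least 10 reads. The 80 peaks annotated to both start and stop codon had 16.2% higher and 50.0% lower (median -0.44).

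Within genes, the median stop codon peak lay slightly below the start codon peak. Over 301 genes with both, the median difference in log2 ratio was -0.13, -0.18, -0.22 and -0.28 in Adap-/- 1, Adap-/- 2, WT 1 and WT 2, or -0.20 ± 0.06 (SD, n = 4 cultures). All 4 were below 0, and the exact two-sided sign-flip test gave p = 0.125, the smallest that 4 cultures allow. The difference was -0.07 over the 248 genes whose peaks had at least 10 reads in every input. Single genes went both ways: the stop codon was lower in every culture in 114 genes and higher in 79. The difference was -0.43 over 67 genes raised more than 4-fold by LPS and -0.29 over 165 genes that changed less than 2-fold. Neither subset was limited to peaks with at least 10 reads in every input.

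Stop codon peaks were above coding peaks of the same gene by 0.15 ± 0.01 (586 genes) and above 3'UTR peaks by 0.09 ± 0.06 (322 genes; SD, n = 4). Coding peaks were below start codon peaks by a median difference of -0.48 ± 0.04 (193 genes). Of start codon peaks 23.1%, and of coding peaks 12.1%, had fewer than 10 reads in an LPS input. The -0.48 was not limited to peaks above that level. Large within-gene differences, given as stop minus start and chosen after their values were seen, lay in Il6 (-3.55), Cebpb (2.72), Oasl1 (2.51) and Hexim1 (2.49). Rab20, a small GTPase, had 4.10, with its start codon peak at -3.30 shared with ENSMUSG00000096957.

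**Figure D5:**
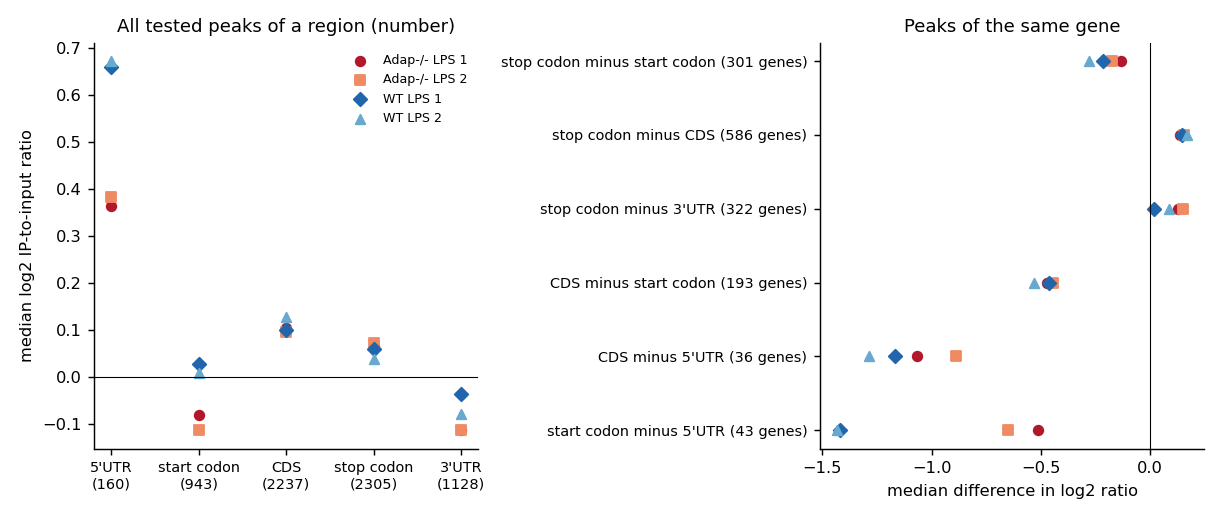
Left, median log2 IP-to-input ratio of tested peaks by annotated region (number of peaks in brackets), 1 point per LPS culture; right, median difference in log2 ratio between peaks of the same gene, 1 point per culture. The 5'UTR stands above the other regions in all cultures (0.36 to 0.67), and stop codon minus start codon lies below 0 in all 4 cultures (-0.28 to -0.13).

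Some genes held strongly and weakly captured peaks side by side. Of 159 genes with at least 3 called peaks of at least 10 input reads, 69 had peaks in both directions. Ahnak, which encodes a giant scaffold protein, had the most peaks, 15, of which 10 were called, from -1.39 to 0.92. The widest range was in Gbp4 (ENSMUSG00000040253), a guanylate-binding protein, from -4.78 in the coding sequence to 0.49 in the 3'UTR, where the ratios were 1.48, 1.33, 1.33 and 1.47. Ifit3 (ENSMUSG00000062488) followed the peak named above (2.60) with a coding peak at 0.222, 0.198, 0.242 and 0.191 (-2.23), less than 1 kilobase away in the same table.

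Rnf225 ran from -3.59 to 0.99, the latter at its stop codon with ratios of 2.13, 2.14, 1.90 and 1.79. Tnfsf15, Oas3 and Edn1 had all their called peaks below 0, and their upper peaks at -0.31, -0.35 and -0.45 lost the call without single cultures. For Tnfsf15 it was lost without Adap-/- 2 (-0.28), WT 1 (-0.28) or WT 2 (-0.31), for Oas3 without Adap-/- 1 (-0.35) or WT 2 (-0.32), and for Edn1 without WT 1 (-0.37) or WT 2 (-0.39).

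A further 108 tested peaks had at most 3 reads in each LPS input, so that their ratio has no firm denominator. They passed the read filter only through their IP libraries, which fixed the direction of their calls: 66 were called higher and 0 lower. Of the 108 peaks, 47.2% lay at a 5'UTR or start codon, against 15.7% of all tested peaks. Cdkn1a, the cell cycle inhibitor p21, had 462, 335, 295 and 461 IP reads at its 5'UTR (chr17:29310874-29312934) over 1 to 3 input reads. Bcl2a1 (ENSMUSG00000053820), an anti-apoptotic BCL2-family gene, had 234, 181, 211 and 309 IP reads at a stop codon over 0 to 3 input reads, and Emp3 88, 109, 80 and 110 over 0 to 1. In Lef1, a transcription factor of the WNT pathway, the IP reads were 76, 251, 396 and 171 over 0 to 1 input reads. IP reads were thus present in every culture for these genes, while the size of the ratio is set by the few input reads.

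Whether capture in LPS PMs differed from that in mock PMs was tested with the interaction of assay and treatment over all 16 libraries. Of 7058 peaks, 24 (0.34%) had a higher ratio in LPS PMs and 121 (1.71%) a lower ratio, 145 (2.05%) in all, and 1189 had an unadjusted p below 0.05. With the WT cultures alone no peak was called by edgeR (595 with an unadjusted p below 0.05), and with the Adap-/- cultures alone 1 higher and 24 lower. Leaving out mock Adap-/- 2 and WT 1 together, the cultures whose IP libraries stood apart, gave 20 higher and 139 lower, of which 7 and 75 were among the peaks called with all cultures. This alternative was chosen after the data were seen. Single cultures moved the counts further. Without mock Adap-/- 2 there were 2 higher and 44 lower, without LPS WT 2 2 and 62, without LPS Adap-/- 2 6 and 72, without LPS WT 1 13 and 74, without LPS Adap-/- 1 14 and 76, without mock Adap-/- 1 8 and 227, and without mock WT 2 285 lower.

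A narrower set kept called peaks with 1 gene and at least 10 reads in each of the 8 inputs. The 4 LPS cultures also had to lie apart from the 4 mock cultures. This left 20 of the 24 higher and 41 of the 121 lower peaks. All were called for a difference between LPS and mock PMs, so their separation is no added support. How often all peaks separate in this way was not counted. The lowest were Il1b (difference in log2 ratio -7.59 ± 1.14, adjusted p = 0.00876), Cxcl2 (-7.00), Ptgs2 (-6.94), Mx1 (-6.77) and Ms4a4d (-6.74), all on transcripts raised strongly by LPS. For Il1b the mock ratios were 7.20 and 114 in Adap-/- 1 and Adap-/- 2 and 72.2 and 2.92 in WT 1 and WT 2, against 0.0870 to 0.134 in LPS PMs. The mock values were thus highest in the cultures whose IP libraries stood apart, and still above 1 in the others. The lowest mock input of this peak was 33 reads.

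The highest were a stop codon peak of Cd300lb (2.33 ± 0.42, adjusted p = 0.0216), Ahnak2 (2.01), Foxo4, a forkhead transcription factor (1.81), the UDP receptor gene P2ry6 (1.38) and Rin3 (1.33). Cd300lb had mock ratios of 0.210, 0.146, 0.309 and 0.237 in Adap-/- 1, Adap-/- 2, WT 1 and WT 2, and LPS ratios of 0.989, 0.453, 2.34 and 0.914, over 11 to 22 LPS input reads. Ahnak2 had 0.395, 0.534, 0.891 and 0.486 in mock and 2.76, 3.42, 2.17 and 1.16 in LPS PMs, at a coding peak (chr12:112743602-112743927) apart from the one named above. LPS lowered the input of these peaks to 0.0387 (Cd300lb), 0.2503 (Foxo4), 0.2 (P2ry6), 0.336 (Rin3) and 0.679 (Ahnak2) of the mock level. The WT LPS IP libraries held more of the transcripts that LPS lowered most, and the part of this in these differences was not tested.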

How the data were processed

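Per the labels, total RNA of each culture was fragmented and divided into input and m6A-antibody IP, and sequenced on an Illumina instrument. The authors deposited counts of reads per merged peak for 16 libraries, with gene, region and transcript annotation. The submitters' processing notes name Bowtie2 2.2.8, MACS2 2.1.2, DiffBind 2.8 and GRCm39. How peaks were merged and whether calls were made per sample are not given in the sources used here. The table repeats a peak for each of its genes, so its 8094 lines were reduced to 7069 peaks (6144 with 1 gene, 925 with several). Groups came from sample titles, 2 replicates each.

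Counts were tested with edgeR 4.0.16 (R 4.3.3; TMM scaling, filterByExpr with a minimum count of 10, quasi-likelihood F-test, Benjamini-Hochberg adjustment at 0.05) with culture as a block, since IP and input of a number came from the same RNA. Correlations of replicate differences between IP and input were 0.08 and 0.09 in LPS PMs and 0.02 and -0.10 in mock PMs, so the pairing rests on the protocol alone. The fit was tested before use on simulated data with few changed peaks, balanced in direction, which does not check the scaling. It left out 49 peaks with few reads, and its biological coefficient of variation was 20.4% on 3 residual degrees of freedom. Ratios per culture are CPM quotients without a prior count; median ratios per culture used a prior count of 2. No molecular identifiers are described, so counts are not independent molecules.

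Named peaks were the 12 highest and 12 lowest called peaks of different genes (1 gene per peak, at least 10 reads in each LPS input, 4 cultures on the same side), the 3 highest and 3 lowest of each gene list, genes named by the study, the 5 highest and lowest for LPS against mock, and genes with the most or most different peaks. The members and lists were chosen with earlier results of these data known. Symbols were matched to RefSeq (GRCm38.p6) for case and ZNF names: 3903 as listed, 347 with the case changed, 72 updated, 223 kept and 398 genes without a symbol. Of the symbols, 86 belong to several gene IDs, and genes were grouped by ID. Deposited symbols were otherwise kept, so a printed ID, and not the symbol beside it, identifies the gene. No genome of the GRCm39 build was used here, so motif, exon and sequence descriptions were not run. Alternatives were DESeq2 1.42.0, other scalings and filters, no block, single genotypes and leaving out each culture.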

Additional observations from a re-analysis of the deposited data

Results flagged for a closer look

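Among 134 named peaks, 3 had a culture far from the other 3 by Dixon's criterion, which chance alone meets in about 1 group of 20. The log2 ratio of the coding peak of Zc3h13, a scaffold of the m6A writer complex, was 1.24 in Adap-/- 2 and 1.73 to 1.80 in the other LPS cultures. The coding peak of Setd1b, an H3K4 methyltransferase, was at 2.11 in Adap-/- 1 and 1.21 to 1.32 in the others. The start codon peak of the respiratory chain gene Cox6b1 was at -0.65 in WT 1 and -1.28 to -1.18 in the others.

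The IP-to-input ratio differed between LPS and mock PMs by the edgeR interaction test in 24 peaks that were higher and 121 that were lower with LPS. The differences in log2 ratio were 2.33 for Cd300lb, 2.01 for Ahnak2, 1.81 for Foxo4, 1.38 for P2ry6 and 1.33 for Rin3, and -7.59 for Il1b, -7.00 for Cxcl2, -6.94 for Ptgs2, -6.77 for Mx1 and -6.74 for Ms4a4d. Mock Adap-/- 2 and WT 1, whose IP libraries held LPS-raised transcripts, enter these values, and their part was given beside the counts.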

How the results depend on the processing

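Calls in LPS PMs were steady under most settings. Without the replicate block there were 1791 higher and 1808 lower, 908 and 675 of them at least 2-fold, and DESeq2 gave 1669 and 1869. Leaving out each culture gave 1227 to 1474 higher and 1447 to 1660 lower, and 732 to 832 and 638 to 795 at least 2-fold. Scaling mattered by construction, since it moves the median of all peaks from 0.06 to 0.03 (RLE), 0.30 (upper quartile) and 0.81 (total reads). With total reads 4381 peaks were higher and 530 lower (2802 and 220 at least 2-fold), and with the upper quartile 1324 and 415 were at least 2-fold. With total reads 15 named peaks turned positive: Alkbh5 0.47, Ythdf3 0.11, Cox7a2l 0.0605, Uqcrh 0.0788, Ctsz 0.24, Pfn1 0.34, Ctsb 0.43, Setd1a 0.12, Kdm4a 0.22, Setd3 0.32, Il1b 0.0478, Il6 0.68, Tnfsf15 0.45, Oas3 0.41 and Edn1 0.31. For Il1b and Il6 these were the start codon peaks, and for Tnfsf15, Oas3 and Edn1 the upper peaks given above. The named lower peaks of these genes did not turn positive. Of 1474 named values under alternatives 1377 kept direction and call.

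For LPS against mock, where the pairing mattered, no replicate block gave 52 higher and 199 lower. DESeq2 gave 44 and 345, RLE 11 higher, the upper quartile 52 higher, total reads 1829 and 234, at least 10 reads in every input 9 and 21, WT alone 0 and 0 by edgeR (595 peaks with an unadjusted p below 0.05), and Adap-/- alone 1 and 24. Leaving out single cultures gave 2 to 19 higher and 44 to 285 lower. The cause was not tested beyond fewer samples.

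The stop minus start codon difference stayed between -0.22 and -0.17 when single cultures were left out, and was -0.07 with at least 10 reads in every input. List and region medians against all peaks changed sign for feedback inhibitors (0.04 with at least 10 reads, 0.05 on transcripts changed less than 2-fold) and stop codon peaks (0.04 with at least 10 reads). Input depth limits peaks under 10 input reads, 1000 of those tested.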
